A study of Mus musculus with 12 samples.

Results

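The genes described here encode F-box proteins, chosen as the genes of the count table whose symbol starts with Fbxo, Fbxw or Fbxl and a number, without Fbxo5 and Fbxo43, which act on the anaphase-promoting complex. This gave 76 of 24562 genes, of which 14 belong to the series Fbxw12 to Fbxw28 (Fbxw13 to Fbxw22, Fbxw24 and Fbxw26 to Fbxw28) and 62 are other F-box genes (19 Fbxl, 35 Fbxo and 8 Fbxw). One of the 62, Fbxl12os, is an antisense RNA that the symbol rule takes in and encodes no F-box protein. Fbxw12, Fbxw23 and Fbxw25 were not analysed here.

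F-box proteins are the substrate-binding subunits of SCF ubiquitin ligases, in which SKP1 links the F-box to the scaffold CUL1 and the RING protein RBX1 brings the ubiquitin-conjugating enzyme. FBXW proteins bind their substrates through WD40 repeats, FBXL proteins through leucine-rich repeats and FBXO proteins through other domains. In oocytes, protein degradation by such ligases is known for its part in meiotic arrest and resumption and in the clearance of maternal proteins after fertilization, and many of the mouse Fbxw genes studied here are known from their expression in oocytes.

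RNA was sequenced from 12 pools of oocytes of CD-1 mice, an outbred stock, with 3 pools in each of 4 cohorts at postnatal day (PND) 13, 16 and 40. PND 16 animals were divided by body weight into PND 16 small and PND 16 large. The study treats PND 13 and PND 16 small oocytes as meiotically non-competent and PND 16 large and PND 40 oocytes as competent, and each pool held 18 to 45 oocytes from antral follicles of ovaries that had not been stimulated with hormones. The comparisons set cohorts of different age, of different body weight at the same age, and of different assigned competence against each other. At PND 16 the split by weight is also the split by competence. The competent group holds the oldest cohort and the non-competent group the youngest. Competence can therefore not be told apart from body weight and age. It was not scored in the sequenced oocytes, and the paper's link to weight at PND 16 rested on few mice, with data not shown.

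Total counts ranged from 17671193 to 27418358 per pool. Levels are given as CPM, the usual measure of counts scaled to a common library size, with the library sizes adjusted by edgeR's TMM factors. A gene was called where edgeR's quasi-likelihood test gave a Benjamini-Hochberg adjusted p of at most 0.05 and a change of at least 1.5-fold. A filter on low counts left 13943 genes for the test, among them 68 of the 76 F-box genes (14 of 14 and 54 of 62). The oocyte genes Zp3 and Gdf9 had at least 29473 and 53661 counts in every pool, and the summed level of 13 oocyte markers ranged from 15395 to 19925 CPM. The summed level of 12 granulosa cell markers ranged from 130 to 528 CPM at PND 13, from 186 to 564 CPM in PND 16 small, from 178 to 191 CPM in PND 16 large and from 155 to 172 CPM at PND 40. Fewer granulosa cells and less RNA per cell cannot be told apart in such pools. Of the defining markers, Foxl2 and Fshr had counts in every pool, and the theca cell gene Cyp17a1 was at 0 in 7 of 12 pools. The summed level of 7 theca cell markers ranged from 25.7 to 83.8 CPM at PND 13 and from 19.2 to 43.7 CPM in PND 16 small, against 11.5 to 14.2 CPM in PND 16 large and 12.5 to 14.8 CPM at PND 40. In competent vs. non-competent oocytes, 2 of the 5 theca markers tested, 2 of the 12 granulosa and 2 of the 13 oocyte markers were called lower. Of all genes tested, 11.2% were called lower.

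Of the 14 Fbxw12 to Fbxw28 genes, 13 lay on the minus strand of chromosome 9 within 651.224 kb (chr9:109139447-109790670 on GRCm38, GENCODE M21). The exception, Fbxw17, lay on the plus strand of chromosome 13 (chr13:50417864-50433780). The 13 chromosome 9 genes resemble each other closely. Over the 78 pairs, the longest protein-coding transcripts were identical at 79.4% to 99.2% of aligned bases, with a median of 84.2%.

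This likeness bears on the counts, since the reads were 50 bases long. For 11 of the 13 genes, 84.6% to 94.2% of the 50-base windows of the transcript occurred in no other gene. For Fbxw14 and Fbxw28, the most alike pair, these shares were 32.4% and 34.0%, and each shared most of its remaining windows with the other. The separate values of Fbxw14 and Fbxw28 are therefore uncertain. All windows of Fbxw17 were unique to it.

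The promoters are shown because the genes lie side by side and are expressed together, and because Fbxw17 differs from them in level and sequence. RefSeq promoters (250 bases before to 50 after the start of each gene, GRCm38.p6) were at hand for 10 of the 13 chromosome 9 genes and for Fbxw17. Over the 45 pairs of the 10, 84.9% to 97.7% of aligned bases were identical (median 91.1%). The first of the following is the promoter of Fbxw19, which had the largest change of the 14 genes between competent and non-competent oocytes, at chr9:109495805-109496104 on the minus strand. The second is that of Fbxw17 at chr13:50417614-50417913 on the plus strand. Capitals mark 2 stretches of 12 bases found in all 10 chromosome 9 promoters.
Fbxw19: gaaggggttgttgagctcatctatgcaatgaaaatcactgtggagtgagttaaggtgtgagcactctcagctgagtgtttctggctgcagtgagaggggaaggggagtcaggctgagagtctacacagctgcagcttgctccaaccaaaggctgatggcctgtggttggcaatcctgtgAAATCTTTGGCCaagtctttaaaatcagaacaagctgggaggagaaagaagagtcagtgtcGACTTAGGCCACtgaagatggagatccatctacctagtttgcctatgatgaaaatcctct
Fbxw17: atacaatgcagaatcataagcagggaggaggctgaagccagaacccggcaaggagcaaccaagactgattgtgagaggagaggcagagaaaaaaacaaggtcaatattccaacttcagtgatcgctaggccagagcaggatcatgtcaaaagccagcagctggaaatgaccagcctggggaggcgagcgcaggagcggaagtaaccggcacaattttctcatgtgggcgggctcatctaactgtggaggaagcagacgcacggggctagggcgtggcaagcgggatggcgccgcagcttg

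The stretch AAATCTTTGGCC began 26 to 71 bases before the start in the 10 promoters and was present in 13 of the 32851 promoters of the table (0.0396%). The stretch GACTTAGGCCAC began between 10 bases before and 35 bases after the start and was present in 12 promoters of the table (0.0365%). Neither occurred in the promoter of Fbxw17. Outside the 10, the first stretch occurred in promoters of Gm40505 and Olfr829. The promoter of Fbxw25, which lies among the 13 genes on chromosome 9 and was not analysed here, held the second stretch. Both stretches were picked because all 10 promoters, which are near-copies of each other, hold them. Their presence in 10 of 10 is therefore not a test. The parts of the promoter from the first stretch to the end of the second are given for 3 more genes, Fbxw24, which had the highest level, Fbxw26, whose level changed least across the pools, and Fbxw15, which had the largest change between any pair of cohorts. They lie on the minus strand at chr9:109626034-109626106, chr9:109746061-109746134 and chr9:109568236-109568309.
Fbxw24: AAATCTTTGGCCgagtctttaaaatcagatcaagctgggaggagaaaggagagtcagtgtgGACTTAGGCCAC
Fbxw26: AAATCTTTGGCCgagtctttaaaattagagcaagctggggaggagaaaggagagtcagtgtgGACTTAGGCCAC
Fbxw15: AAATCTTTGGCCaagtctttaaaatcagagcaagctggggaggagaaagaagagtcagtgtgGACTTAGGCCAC

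Both strands of the promoters were searched for 5 short motifs. CANNTG, the E-box to which the oocyte factor FIGLA binds with its partners, was present in 10 of 10 promoters and in 72.3% of all promoters of the table. One form of it, CAGCTG, added after the sequences had been seen, was present in 10 of 10 and in 16.3% of all. The promoter of Fbxw17 held CANNTG and CAGCTG as well. TAATTG and TAGTTG, which the oocyte homeobox factor NOBOX is known to bind, TAATTA, a general homeobox motif, and TATAAA, the TATA box, were in 0 of 10, against 8.0%, 6.59%, 5.29% and 13.6% of all promoters. A missing match says only that these letters were not in the window. The 10 promoters are near-copies of each other, so a motif in 10 or in 0 of them is not 10 separate observations.

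The chromosome 9 genes were among the most abundant F-box transcripts in the oocytes. Summed counts of the 13 genes made up 0.486%, 0.559% and 0.528% of all counts in the PND 13 pools, 0.479%, 0.446% and 0.469% in PND 16 small, 0.514%, 0.545% and 0.525% in PND 16 large, and 0.543%, 0.571% and 0.517% at PND 40. Every PND 16 small pool lay below every pool of the other cohorts. After TMM scaling this held against PND 16 large and PND 40 alone, since the summed level ranged from 4513 to 4912 CPM in PND 16 small and from 4680 to 5411 CPM at PND 13, against 5342 to 5447 CPM in PND 16 large and 5206 to 5700 CPM at PND 40. The 63 remaining genes, Fbxw17 included, made up 0.408% to 0.464% of counts over the 12 pools.

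**Figure D1:**
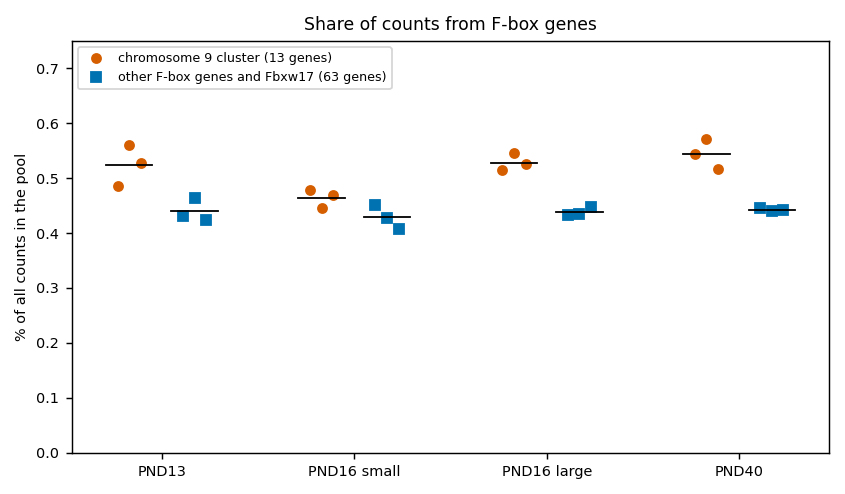
Share of all counts in each pool (vertical axis, %) from the 13 chromosome 9 genes (circles) and from the other 63 F-box genes, Fbxw17 included (squares), by cohort, with lines at the means of 3 pools. The chromosome 9 genes sit between 0.446% and 0.479% in PND 16 small and between 0.486% and 0.571% in the other 9 pools.

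Per kilobase of exon, the 13 genes had mean levels over the 12 pools from 57.2 CPM per kb for Fbxw13 to 650 CPM per kb for Fbxw24, with a median of 174 CPM per kb. Fbxw24 was followed by Fbxw18 at 452 ± 43.5 CPM per kb (SD, n = 12) and Fbxw15 at 344 ± 43.8 CPM per kb. Fbxw14 and Fbxw28, at 220 ± 18.8 and 219 ± 17.2 CPM per kb, did not differ beyond their spread. They share most of their windows, so their separate levels, and the likeness of these, are uncertain. Fbxw17 had 4.49 ± 0.594 CPM per kb, below all 13.

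Among the 53 other F-box genes that were tested and have an exon length, the level per length ranged from 0.143 to 91.7 CPM per kb, with a median of 5.81 CPM per kb. Of these, 6 lay above Fbxw13 and none above the median of the 13. The highest were Fbxo34, implicated in the G2 to M transition of mouse oocytes, at 91.7 ± 10.8 CPM per kb, Fbxo11, known for targeting BCL6, at 75.0 ± 11.2 CPM per kb, Fbxo28 at 71.1 ± 6.94 CPM per kb, and Fbxo30, which targets the kinesin EG5, at 63.6 ± 7.80 CPM per kb. Of the windows of Fbxo34, 78.4% were unique to it.

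**Figure D2:**
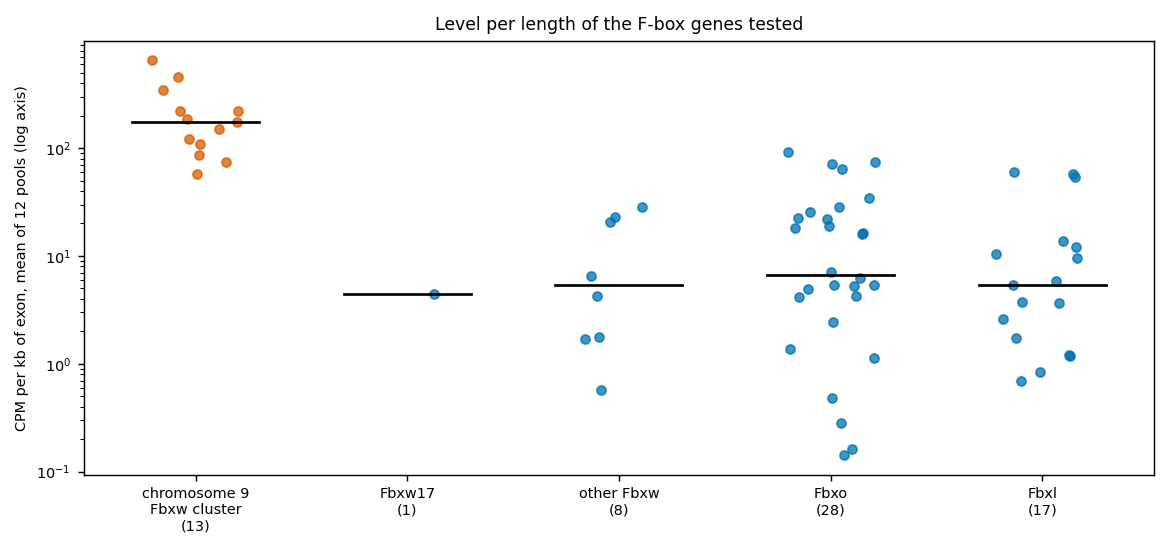
Mean level over the 12 pools in CPM per kb of exon (vertical axis, logarithmic), 1 point for each F-box gene tested, by class with the number of genes in brackets and lines at the medians. The 13 chromosome 9 genes sit between 57.2 and 650 CPM per kb, whereas Fbxw17 sits at 4.49 and the other genes between 0.143 and 91.7.

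In competent compared with non-competent oocytes, none of the 14 Fbxw12 to Fbxw28 genes reached the call of 1.5-fold, against 15.0% of all genes tested, whereas 6 of the 14 passed the adjusted p alone, all of them higher in competent oocytes. These 6 were Fbxw14, Fbxw15, Fbxw19, Fbxw21, Fbxw27 and Fbxw28, of which Fbxw14 and Fbxw28 share most of their windows. The adjusted p alone was passed by 30.7% of all genes, and by 14.2% as higher. At an unadjusted p under 0.05 there were 7 of 14 (42.1% of all genes), and DESeq2 and limma also called none with the fold criterion. The median log2 fold change of the 14 was 0.15, against -0.0046 over all genes tested, and 11 of them lay above 0.

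Fbxw19 had 377, 418 and 356 CPM at PND 13, 377, 365 and 383 CPM in PND 16 small, 425, 494 and 443 CPM in PND 16 large, and 472, 501 and 466 CPM at PND 40. All 6 competent pools lay above all 6 non-competent pools. The log2 fold change was 0.30 ± 0.06 (SE, adjusted p = 0.00166 by edgeR), a mean of 467 ± 29.2 against 379 ± 21.3 CPM (SD, n = 6).

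Fbxw27 behaved alike at a lower level, with 135, 147 and 149 CPM at PND 13, 146, 147 and 164 CPM in PND 16 small, 174, 173 and 177 CPM in PND 16 large, and 174, 176 and 165 CPM at PND 40. The groups of 6 pools did not overlap, although the lowest competent pool (165 CPM) lay next to the highest non-competent pool (164 CPM). Its log2 fold change was 0.23 ± 0.05 (adjusted p = 0.00553 by edgeR).

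Fbxw21 rose by 0.26 ± 0.06 on the log2 scale (adjusted p = 0.00566 by edgeR), from 370.5 to 444 CPM in non-competent pools to 458 to 548 CPM in competent pools, again without overlap. Fbxw14 was also without overlap, at 399 to 474 CPM against 482 to 519 CPM (log2 fold change 0.19 ± 0.06, edgeR adjusted p = 0.0193). The pools of Fbxw15 and Fbxw28 overlapped between the groups (log2 fold changes 0.27 ± 0.07 and 0.16 ± 0.06, edgeR adjusted p = 0.0113 and 0.0436). Of the 14 genes, 4 were without overlap, against 14.7% of all genes tested.

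Fbxw13 had the lowest value of the 14 in this comparison, a log2 fold change of -0.12 ± 0.10 (edgeR adjusted p = 0.418). It had 94.4, 104 and 97.8 CPM at PND 13, 82.1, 79.0 and 82.8 CPM in PND 16 small, 90.9, 101 and 86.2 CPM in PND 16 large, and 72.7, 81.7 and 66.7 CPM at PND 40. Fbxw13 was lowest at PND 40, where all 3 pools lay below those of PND 13 and PND 16 large. The adjusted p alone was passed at PND 40 vs. PND 13 (log2 fold change -0.42 ± 0.09, edgeR adjusted p = 0.00311) and at PND 40 vs. PND 16 large (-0.33 ± 0.09, edgeR adjusted p = 0.0442).

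Among the remaining genes, the log2 fold change between competent and non-competent oocytes ranged from -0.04 for Fbxw17 to 0.17 for Fbxw22, and none passed the adjusted p. Fbxw24 ranged from 796 to 1129 CPM over the non-competent and from 958 to 1039 CPM over the competent pools. Fbxw26 was the least variable of the chromosome 9 genes, with a coefficient of variation of 6.01% over the 12 pools and a highest pool only 1.28 times the lowest. Fbxw16 was the most variable (16.3%), and its 187 CPM in PND 13 replicate 2 stood apart from 300 to 342 CPM in the other non-competent pools. Fbxw17 lay between 13.2 and 21.5 CPM in all pools.

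**Figure D3:**
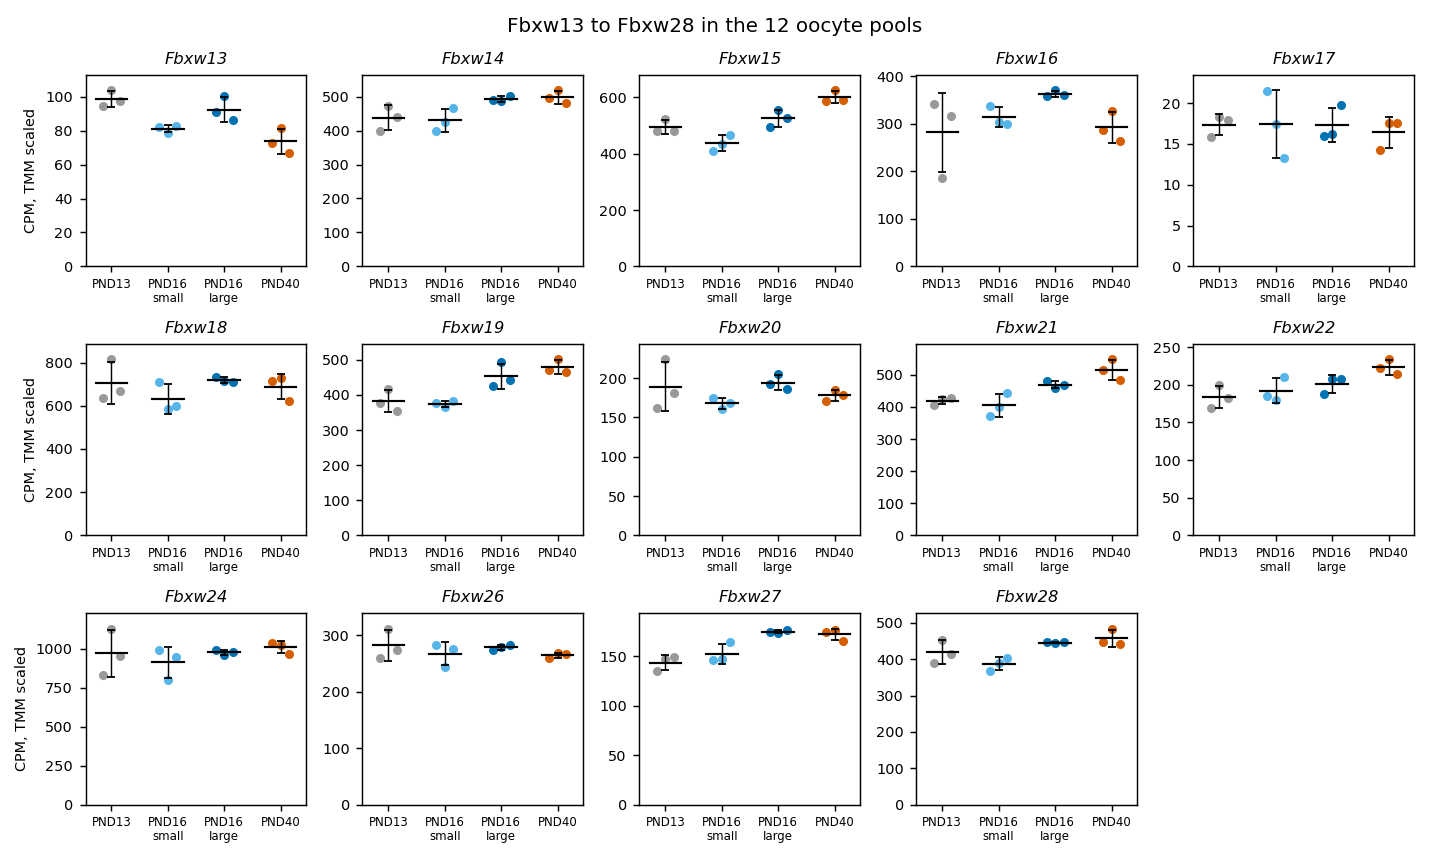
Level of each of the 14 Fbxw12 to Fbxw28 genes in CPM (vertical axes, from 0) in the 3 pools of each cohort, with lines at the means and bars for the SD. Fbxw19 sits at 356 to 418 CPM in the 6 pools of PND 13 and PND 16 small and at 425 to 501 CPM in the others, whereas Fbxw13 is lowest at PND 40 (66.7 to 81.7 CPM).

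The 6 pairwise comparisons share pools with each other and with the comparison by competence, so their values are given side by side and not as separate evidence. None of the 14 genes was called in any of them. In PND 16 large vs. PND 16 small, animals of the same age and different weight, all 13 chromosome 9 genes had a log2 fold change above 0, from 0.06 for Fbxw26 to 0.28 for Fbxw19. The median was 0.20, against -0.02 over all genes, and 6701 of the 13943 genes tested lay above 0. The pools of 9 of the 13 did not overlap between the cohorts, against 31.5% of all genes. All 13 stayed above 0 without any 1 pool and under the 3 other scalings. The genes share sequence and lie together, so they are not independent of each other.

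The adjusted p alone was passed in this comparison by Fbxw15 (0.26 ± 0.07, edgeR adjusted p = 0.0289) and Fbxw19 (0.28 ± 0.08, edgeR adjusted p = 0.0316), 2 of 14 against 12.3% of all genes. Under the alternatives and without single pools this count ranged from 0 to 5, with 0 without PND 16 large replicate 2 or 3, 1 without PND 16 small replicate 1 or 2, and 4 without PND 16 small replicate 3. In PND 16 small vs. PND 13 none of the 14 passed the adjusted p (0.925% of all genes did), with 2 at an unadjusted p under 0.05 (19.2% of all genes), and the median was -0.06 (-0.03 over all genes).

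At PND 40 vs. PND 16 small, 5 of 14 passed the adjusted p alone, all higher (30.2% of all genes). That count was 3 without PND 16 small replicate 1 or PND 40 replicate 2 and 7 without PND 16 small replicate 3. At PND 40 vs. PND 13 there were 6, of which Fbxw13 was lower (33.1%). The medians were 0.16 and 0.09, against -0.01 and 0.0044 over all genes. The largest change of the 14 genes in any comparison was that of Fbxw15 at PND 40 vs. PND 16 small, 0.46 ± 0.07 on the log2 scale (edgeR adjusted p = 0.000463). Fbxw15 had 480, 525 and 481 CPM at PND 13, 409, 435 and 467 CPM in PND 16 small, 494, 555 and 526 CPM in PND 16 large, and 586, 625 and 590 CPM at PND 40. Its PND 40 pools lay above all other pools.

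In PND 16 large vs. PND 13, Fbxw19 (0.24 ± 0.08, edgeR adjusted p = 0.0311) and Fbxw27 (0.29 ± 0.07, edgeR adjusted p = 0.00888) passed the adjusted p alone, 2 of 14 against 25.6% of all genes, and 1 without PND 13 replicate 1 or 3 or PND 16 large replicate 2 or 3. At PND 40 vs. PND 16 large, Fbxw13 alone did (6.83% of all genes), and the median was -0.0045, against 0.0037 over all genes. That count was 2 without PND 13 replicate 2, and 0 without PND 13 replicate 1 or 3, any PND 16 large pool, or PND 40 replicate 1 or 3. The summed theca markers were lower in every competent pool than in every non-competent pool. The summed granulosa markers overlapped between the groups, with 130 CPM in PND 13 replicate 2, below every competent pool. The part of granulosa and theca RNA in the differences of the F-box genes was not tested.

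Of the 54 other F-box genes tested, 7 were called in competent vs. non-competent oocytes (15.0% of all genes), 2 higher and 5 lower, against 3.78% and 11.2% of all genes. The median log2 fold change of the 54 was -0.04. Those lower were Fbxl15, Fbxo45, Fbxl21, Fbxl18 and Fbxo47, and those higher were Fbxw10 and Fbxo15. Each of the 7 was also called without any 1 pool and under each of the 9 other processing settings.

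Fbxo45, which works with the RING protein MYCBP2 in place of CUL1, had 30.5, 26.4 and 27.3 CPM at PND 13, 41.3, 22.9 and 36.1 CPM in PND 16 small, 10.1, 11.2 and 14.8 CPM in PND 16 large, and 9.78, 10.4 and 8.67 CPM at PND 40. No competent pool reached a non-competent pool. Fbxo45 fell by 1.51 ± 0.16 on the log2 scale (edgeR adjusted p = 2.68e-05), from 30.8 ± 6.82 to 10.8 ± 2.12 CPM (SD, n = 6).

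Fbxl15, which directs the degradation of the ubiquitin ligase SMURF1, had 2.48, 3.44 and 2.86 CPM at PND 13, 2.82, 2.08 and 1.42 CPM in PND 16 small, 0.532, 1.10 and 1.11 CPM in PND 16 large, and 0.257, 0.478 and 0.551 CPM at PND 40. The groups did not overlap and the level was low. Fbxl15 fell by 1.90 ± 0.37 on the log2 scale (edgeR adjusted p = 0.00156).

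Fbxl18 was at 42.0, 44.7 and 46.1 CPM at PND 13, 42.3, 33.9 and 42.2 CPM in PND 16 small, 24.0, 30.5 and 28.0 CPM in PND 16 large, and 22.0, 21.8 and 22.7 CPM at PND 40, again without overlap. It fell by 0.75 ± 0.11 (edgeR adjusted p = 0.000185). Fbxl21, which acts on the cryptochromes of the circadian clock, ranged from 3.98 to 6.51 CPM in non-competent and from 2.41 to 3.74 CPM in competent pools and fell by 0.91 ± 0.19 (edgeR adjusted p = 0.00217).

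Fbxo47, required for meiotic prophase in the testis, had 23.0, 19.7 and 17.3 CPM at PND 13, 20.0, 13.1 and 22.8 CPM in PND 16 small, 10.2, 11.2 and 10.5 CPM in PND 16 large, and 13.3, 12.3 and 13.6 CPM at PND 40. The groups overlapped at PND 16 small replicate 2. The gene fell by 0.70 ± 0.14 on the log2 scale (edgeR adjusted p = 0.00194).

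Of the genes that rose, Fbxw10 had 1.34, 0.781 and 1.80 CPM at PND 13, 0.437, 1.75 and 1.60 CPM in PND 16 small, 4.17, 2.76 and 2.55 CPM in PND 16 large, and 1.89, 4.10 and 4.19 CPM at PND 40. The groups did not overlap, although PND 40 replicate 1 lay next to the highest non-competent pool. The log2 fold change was 1.35 ± 0.34 (edgeR adjusted p = 0.00854).

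Fbxo15, known as a target of OCT4 in embryonic stem cells, had 1.81, 3.16 and 2.33 CPM at PND 13, 3.45, 2.08 and 2.79 CPM in PND 16 small, 4.09, 3.16 and 4.18 CPM in PND 16 large, and 5.62, 5.97 and 7.42 CPM at PND 40. The PND 40 pools lay above all others, and PND 16 large overlapped with the non-competent pools. The log2 fold change was 0.96 ± 0.24 (edgeR adjusted p = 0.00799).

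**Figure D4:**
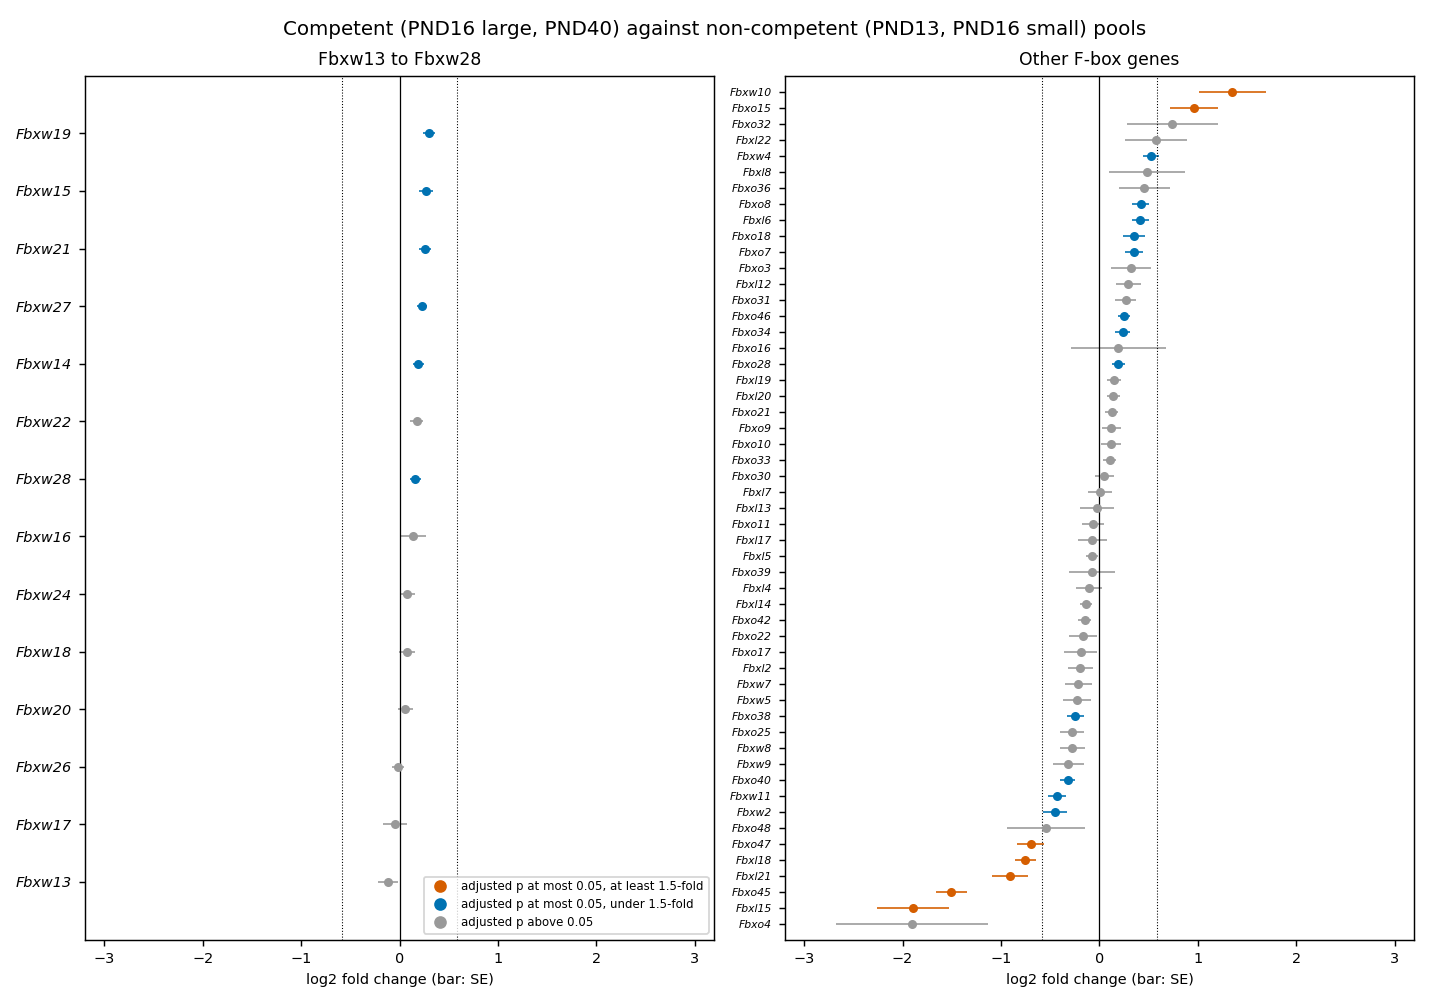
Log2 fold change of each tested F-box gene in competent vs. non-competent oocytes (horizontal axis), with bars for the SE and dotted lines at 1.5-fold. The 14 Fbxw12 to Fbxw28 genes (left) lie between -0.12 and 0.30, within the dotted lines, and 53 of the 54 other genes (right) between -1.91 and 1.35, with 7 called (orange).

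Between single cohorts, the number of other F-box genes called ranged from 0 to 13. In PND 16 small vs. PND 13, 0 of 54 were called (0.373% of all genes), with 13 at an unadjusted p under 0.05 (19.2% of all genes) and 0 calls by DESeq2 and limma. There were 3 without PND 16 small replicate 1. In PND 16 large vs. PND 16 small, 2 were called (6.19% of all genes), Fbxo45 (-1.47 ± 0.20, edgeR adjusted p = 0.00188) and Fbxo47 (-0.81 ± 0.18, edgeR adjusted p = 0.0149), and none was higher. This count was 4 without PND 16 small replicate 2 and 1 without PND 16 small replicate 3 or PND 16 large replicate 1, Fbxo47 being lost in both.

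In PND 16 large vs. PND 13, 7 of 54 were called (13.3% of all genes), 2 higher and 5 lower, against 3.52% and 9.80% of all genes. The 2 that were higher were Fbxw4, the gene at the dactylaplasia locus of the mouse (0.64 ± 0.11, edgeR adjusted p = 0.00157), and Fbxo8, which carries a SEC7 domain (0.62 ± 0.10, edgeR adjusted p = 0.000793). Fbxo8 had 107, 103 and 80.4 CPM at PND 13 and 155, 142 and 151 CPM in PND 16 large, without overlap. Both calls were lost with scaling by total counts and without PND 13 replicate 3, and that of Fbxo8 also without PND 16 large replicate 1. Those lower were Fbxl15, Fbxo45, Fbxo47, Fbxl21 and Fbxl18. The call of Fbxl21 was lost in 6 of the 12 fits that left out a pool and under 3 of the 9 other settings. That of Fbxl15 was lost without PND 16 large replicate 1. The count of 7 was 4 without PND 13 replicate 3 or without PND 16 large replicate 1.

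At PND 40 vs. PND 13, 11 of 54 were called (18.9% of all genes), 4 higher and 7 lower, against 6.31% and 12.6% of all genes. Those higher were Fbxw10, Fbxo15, Fbxl8 and Fbxw4. Fbxl8 had 2.15, 3.48 and 2.50 CPM at PND 13, 2.57, 2.61 and 4.86 CPM in PND 16 small, 1.68, 1.74 and 2.23 CPM in PND 16 large, and 6.82, 6.41 and 6.46 CPM at PND 40. All 3 PND 40 pools lay above every other pool. The log2 fold change was 1.27 ± 0.30 against PND 13 (edgeR adjusted p = 0.00596) and 1.80 ± 0.31 against PND 16 large (edgeR adjusted p = 0.00466). It was the single F-box gene called between the competent cohorts (3.66% of all genes were). The call of Fbxw10 had an adjusted p of 0.0496 by edgeR, and it was lost in 9 of the 12 fits that left out a pool (all but those without PND 16 small replicate 1 or 2 or PND 40 replicate 1). It was also lost under 6 of the 9 other processing settings. The call of Fbxw4 (0.59 ± 0.11) lay at the threshold of fold and was lost in 8 of 12 fits and under 3 of 9 settings.

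The genes lower at PND 40 than at PND 13 were Fbxl15 (-2.75 ± 0.46), Fbxo45 (-1.55 ± 0.20), Fbxl21 (-1.08 ± 0.26), Fbxl18 (-0.996 ± 0.12), Fbxo47 (-0.61 ± 0.18), Fbxw2 and Fbxo4. The last 2 fell outside the rule for named genes and are given because they complete the count. The call of Fbxo47 was lost in 4 of 12 fits without a pool. Fbxw2 fell by 0.62 ± 0.15 (edgeR adjusted p = 0.0064), a call lost without PND 40 replicate 2. Without that pool the count of 11 was 6.

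Fbxo4, which takes part in the degradation of cyclin D1, had 8, 1 and 22 counts at PND 13, 4, 12 and 12 counts in PND 16 small, 7, 5 and 3 counts in PND 16 large and 0, 2 and 1 counts at PND 40. Its level at PND 40 was at or under a floor of 3 counts per pool. The mean of PND 13 was 3.69 times that floor and the mean of PND 16 small 4.12 times. PND 13 replicate 2, with 1 count, was under the floor as well, so the pools of PND 13 and PND 40 overlapped and no least fold follows. The 2 calls of Fbxo4 were each lost in 9 of 12 fits without a pool and under 3 of the 7 other settings that tested it. The pools with few counts at PND 13 and PND 16 small, replicate 2 and replicate 1, were also those with the least granulosa marker RNA (130 and 186 CPM), whose part was not tested.

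At PND 40 vs. PND 16 small, 13 of 54 were called (17.2% of all genes), 5 higher and 8 lower, against 6.89% and 10.3% of all genes. The count was 8 without PND 16 small replicate 3. Those higher included Fbxw10, Fbxo15 and Fbxl8, as above, and Fbxl22, known from the sarcomere of heart muscle. The calls of Fbxw10 and Fbxl8 were lost in 9 and 5 of 12 fits without a pool and under 4 and 1 of 9 other settings. Fbxl22 had 1.89, 0.995 and 2.08 CPM in PND 16 small and 4.37, 3.58 and 5.14 CPM at PND 40 (1.40 ± 0.34, edgeR adjusted p = 0.0071). The fifth, outside the rule for named genes, was Fbxo18, the helicase FBH1 (0.60 ± 0.11, edgeR adjusted p = 0.00154), whose call was lost without PND 16 small replicate 2 or 3. Among those lower was Fbxw7, which directs the degradation of cyclin E and MYC. It had 30.6, 35.6 and 39.5 CPM in PND 16 small and 23.4, 22.9 and 23.0 CPM at PND 40, without overlap (-0.61 ± 0.13, edgeR adjusted p = 0.00388), and its call was lost without PND 16 small replicate 3. The others were Fbxl15, Fbxo45, Fbxl21, Fbxl18, Fbxw2 and Fbxo4, with Fbxo17 (-0.69) to complete the count. The call of Fbxw2 was lost without PND 16 small replicate 3 or PND 40 replicate 2.

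**Figure D5:**
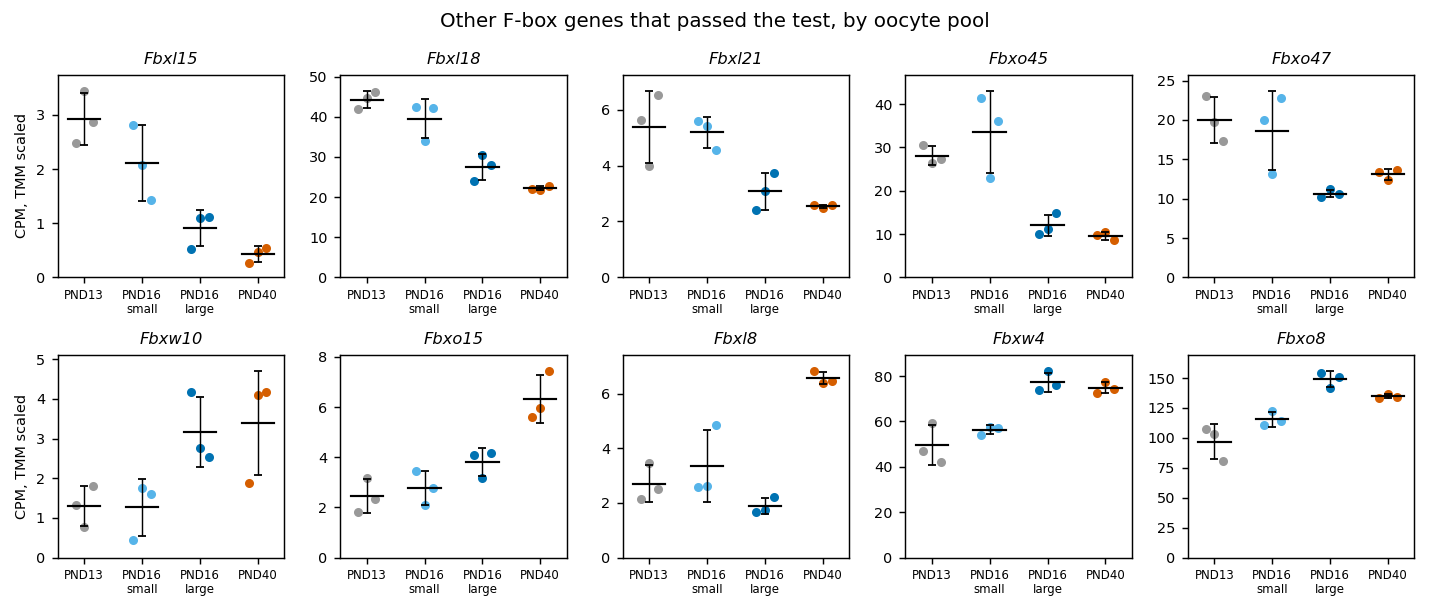
Level of 10 other F-box genes in CPM (vertical axes, from 0) in the 3 pools of each cohort, with lines at the means and bars for the SD. Fbxo45 sits at 22.9 to 41.3 CPM in PND 13 and PND 16 small and at 8.67 to 14.8 CPM in PND 16 large and PND 40, whereas Fbxl8 is highest at PND 40 (6.41 to 6.82 CPM).

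Altogether 16 of the 68 F-box genes tested were called in at least 1 of the 7 comparisons, against 30.3% of all genes, none of them among the 14. Of the genes with well-known roles, several passed the adjusted p with small differences between competent and non-competent oocytes. Fbxw11, the beta-TrCP paralogue that recognises phosphodegrons of beta-catenin and EMI1, fell by 0.43 ± 0.09 (edgeR adjusted p = 0.00263). Fbxo34 rose by 0.24 ± 0.07 (edgeR adjusted p = 0.0258) and Fbxo7, a partner of parkin, by 0.35 ± 0.09 (edgeR adjusted p = 0.00962).

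The adjusted p was above the threshold for Fbxo11 (-0.06 ± 0.11), Fbxo30 (0.05 ± 0.10), Fbxl5, the iron-sensing subunit (-0.08 ± 0.06), Fbxl20 (0.14 ± 0.07), Fbxw7 (-0.21 ± 0.14) and Fbxw8, which pairs with CUL7 (-0.28 ± 0.13). The muscle gene Fbxo32 (atrogin-1) ranged from 0.474 to 5.27 CPM (0.74 ± 0.46, edgeR adjusted p = 0.244). Fbxo2 and Fbxo6, which bind glycoproteins, were among the 8 genes that did not pass the filter, none of which had more than 15 counts in a pool. A log2 difference of a low gene was less precise, with an SE of 0.77 for Fbxo4 against 0.06 for Fbxw19.

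The other parts of the SCF ligase were present throughout. Skp1a, the mouse gene for SKP1, had cohort means of 1450 to 1610 CPM, and Cul1 of 1071 to 1225 CPM. Of 28 genes for SCF subunits, its NEDD8 cycle and the COP9 signalosome that were tested, 2 were called in competent vs. non-competent oocytes (15.0% of all genes), both lower (11.2% of all genes). The median log2 fold change of the 28 was 0.10, against -0.0046 over all genes. The adjusted p alone was passed by 8 of them (30.7% of all genes), 4 higher and 4 lower. Dcun1d3, which acts on cullin neddylation, fell by 0.87 ± 0.10 (edgeR adjusted p = 6.44e-05), from 41.0 and 40.3 CPM at PND 13 and PND 16 small to 25.1 and 19.2 CPM in PND 16 large and PND 40. Ube2r2, a ubiquitin-conjugating enzyme of SCF ligases, fell by 0.83 ± 0.14 (edgeR adjusted p = 0.000609), from 14.1 and 12.8 to 7.08 and 8.10 CPM.

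Both were also called lower in PND 16 large and PND 40 against PND 13 and PND 16 small taken singly. Of all genes, 9.80% were called lower in PND 16 large vs. PND 13 and 664 of 13943 in PND 16 large vs. PND 16 small. At PND 40 these shares were 12.6% against PND 13 and 10.3% against PND 16 small. Rbx1 was called at PND 40 vs. PND 16 small (0.65 ± 0.13, edgeR adjusted p = 0.00296) and Cops9, the small subunit of the signalosome, in PND 16 large vs. PND 13 (0.60 ± 0.13, edgeR adjusted p = 0.00637). For Skp1a and Cul1 the log2 fold changes by competence were 0.09 ± 0.06 and 0.10 ± 0.06 (edgeR adjusted p = 0.237 and 0.236).

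Of 6 F-box genes listed under other symbols (Skp2, Btrc, Ccnf, Kdm2a, Kdm2b and Lrrc29), 1 was called in 1 comparison, in which 18.9% of all genes were called. Kdm2b, a histone demethylase that recruits a Polycomb complex, rose at PND 40 vs. PND 13 (0.62 ± 0.16, edgeR adjusted p = 0.0104), with cohort means of 559, 650, 707 and 860 CPM from PND 13 over PND 16 small and PND 16 large to PND 40. Btrc, the other beta-TrCP gene, had a log2 fold change by competence of 0.24 ± 0.06 (edgeR adjusted p = 0.00527) and Skp2, an F-box protein of the cell cycle, of 0.17 ± 0.08 (edgeR adjusted p = 0.116).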

How the data were processed

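RNA was depleted of ribosomal RNA, made into directional libraries and sequenced on a HiSeq, and the reads were analysed by the authors with Rosalind. The submitters' processing notes name mm10, FastQC, STAR, HTSeq, DESeq2, DESeq and HOMER. The authors deposited counts of reads per gene without normalization, and log2 values, which are the log2 of the same counts scaled per pool plus 1. Counts were tested with edgeR 4.0.16 in R 4.3.3 (filterByExpr with a minimum count of 10, TMM, robust quasi-likelihood test, p-values adjusted by Benjamini-Hochberg across the 13943 genes tested), in 1 model of the 4 cohorts and 1 of the competence groups. Each SE was taken from the fold change and its F statistic (its absolute value over the root of F). The procedure was tested on simulated counts. For 1 other F-box gene, counted in the totals, no separate values are reported here. Limma 3.58.1, DESeq2 1.42.0, other scalings and filters, no fold criterion, a replicate block and leaving out each pool were alternatives. The floor of 3 counts covers counting error only.

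The members, gene lists and tests were chosen with earlier results of these data known. Named genes were the Fbxw12 to Fbxw28 genes, the 4 other F-box genes with the largest called change in each direction of each comparison (mean of at least 1 CPM), a list of genes with textbook roles, and called genes of the SCF and other-symbol lists. Comparison of protein sequences had been planned, and transcripts and promoters were compared instead (GENCODE M21 and RefSeq, with biopython 1.88). The study describes 3 independent pools per cohort made from the oocytes of 3 mice, and the labels do not tie pools to animals, so p-values measure the spread between pools.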

Additional observations from a re-analysis of the deposited data

Results flagged for a closer look

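In the groups of 6 competent or 6 non-competent pools, 72 groups of named F-box genes were searched for a pool far from the others by Dixon's test, and 6 had one. Chance flags about 1 in 20 such groups, and the genes of the chromosome 9 cluster are not independent of each other. PND 13 replicate 2 was far below the other non-competent pools for Fbxw16 (187 CPM against 300 to 342 CPM) and far above them for Fbxw20 (224 CPM against 161 to 182 CPM). Without that pool the log2 fold change of Fbxw16 by competence was 0.02 in place of 0.14, not called in either case. PND 40 replicate 3 was the lowest competent pool for Fbxw18 (624 CPM against 709 to 734 CPM) and for Fbxw27 (165 CPM against 173 to 177 CPM), and PND 40 replicate 2 the highest for Fbxw28 (484 CPM against 442 to 448 CPM). PND 16 small replicate 2 was the lowest non-competent pool for Fbxl18 (33.9 CPM against 42.0 to 46.1 CPM).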

How the results depend on the processing

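None of the 14 Fbxw12 to Fbxw28 genes was called under any alternative that kept the fold criterion, nor without any 1 pool (0 to 0 in each of the 7 comparisons). Without the fold criterion, 6 of them passed by competence, 6 and 5 at PND 40 against PND 13 and PND 16 small, 1 at PND 40 against PND 16 large, and 2 each in PND 16 large against PND 16 small and PND 13. Of the other F-box genes, 19, 23, 24, 3, 6 and 14 passed in the same order. In an alternative chosen after seeing the data, the count at adjusted p alone by competence was 5 to 7 over all settings and 5 to 6 without a pool. For the other F-box genes, leaving out a pool gave 4 to 8 calls in PND 16 large vs. PND 13, 6 to 11 at PND 40 vs. PND 13, 1 to 4 in PND 16 large vs. PND 16 small, 8 to 13 at PND 40 vs. PND 16 small, 1 to 2 at PND 40 vs. PND 16 large, 0 to 3 in PND 16 small vs. PND 13 and 7 to 8 by competence. DESeq2 gave 4 and 2 calls in PND 16 large vs. PND 16 small and PND 40 vs. PND 16 large, and a model of the cohorts compared alone gave 1 and 3. The cause was not tested.

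The log2 fold change by competence changed sign without a pool for Fbxw17 (0.028 without PND 16 small replicate 1 and 0.0029 without PND 40 replicate 1, range -0.12 to 0.028), Fbxw26 (0.015 without PND 13 replicate 2, range -0.058 to 0.015) and Fbxo30 (-0.00194 without PND 13 replicate 2, range -0.00194 to 0.11), none of them called. Scaling by total counts moved the median of all genes to -0.13 in PND 16 large vs. PND 13 and to -0.12 in PND 16 small vs. PND 13. With total counts, 6 of the 13 chromosome 9 genes lay above 0 in PND 16 large vs. PND 13 (median -0.009), against 11 with TMM (median 0.09). In PND 16 small vs. PND 13, 1 of 13 did (median -0.18), against 3 with TMM (median -0.08). Medians relative to that of all genes cannot tell the scalings apart, since a scaling shifts all genes about alike. Same-numbered pools of different cohorts did not deviate together (correlations from -0.442 to 0.0753), so the replicate numbers were not taken as pairs. With the replicate block, 7 other F-box genes were called by competence and 0 of the 14, and no count moved by over 1.5 times. Depth limits the genes with few counts, such as Fbxo4.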
